A study of Homo sapiens with 6 samples.

Results

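The basal transcriptome of untreated U87MG cells was read from 3 of the 6 arrays of the study, those labelled as untreated, and the 3 arrays of cells given P-bi-TAT (30 µM, over 24 h) were not used. U87MG is an established human glioblastoma line, kept here in RPMI medium with 10% fetal bovine serum and, per the study's methods, in 0.25% serum before the exposure. The untreated cells received PBS for 24 h in place of the agent, and since the labels name no culture of origin for each replicate, a p-value here reflects how far these 3 arrays scatter, and that scatter may be technical. Total RNA was labelled by a whole-transcript sense-target protocol and hybridised to Clariom S arrays, 1 array per replicate, which give 1 summarised log2 signal per probe set. All 17687 genes with a probe set carrying 1 symbol were described, out of 21448 gene probe sets on the array, with the probe set of the highest mean for the 20 genes that had more than 1.

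Gliomas are commonly sorted by their transcripts into proneural, classical and mesenchymal patterns, and the mesenchymal one shares adhesion, matrix and cytoskeletal genes with connective tissue cells. Astrocytes are marked by the intermediate filament protein GFAP and by glutamate and water handling proteins, oligodendrocyte lineage cells by OLIG and SOX10 transcription factors and myelin proteins, and neurons by synaptic and axonal proteins. Serum-grown glioma lines are known for drifting from the glial program of the tumor, and integrin αvβ3, the plasma membrane receptor that the study's agent addresses, is a dimer of the products of ITGAV and ITGB3.

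Signal was read against the 612 negative control probe sets of the same array, whose probes have no intended target. Their medians were 3.98, 3.79 and 3.67 in replicates 1, 2 and 3, and their 95th percentiles were 7.72 in replicate 1 and 6.999 and 6.989 in replicates 2 and 3. A gene was called detected where it lay above the 95th percentile of the controls on each of the 3 arrays, not detected where it lay at or below it on each of the 3, and mixed otherwise. By this rule 3549 of 17687 genes (20.1%) were detected, 2358 (13.3%) were mixed and 11780 (66.6%) were not detected, while 2688 (15.2%) were at or below the control median on each array and 1201 (6.79%) above the 99th percentile on each. The same rule called 1692 of 2197 positive control probe sets (77%), and 5 of 612 negative controls, 0 of 63 ERCC probe sets and 0 of 23 GC background probe sets. A limma test of the distance above the 95th percentile, one-sided and adjusted over all gene probe sets, called 3006 genes (17.0%), of which 2986 were among the 3549. A gene called not detected has a signal that these controls also reach, which does not show that its transcript is absent, and in a bulk culture fewer expressing cells and less RNA per cell cannot be told apart.

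**Figure D1:**
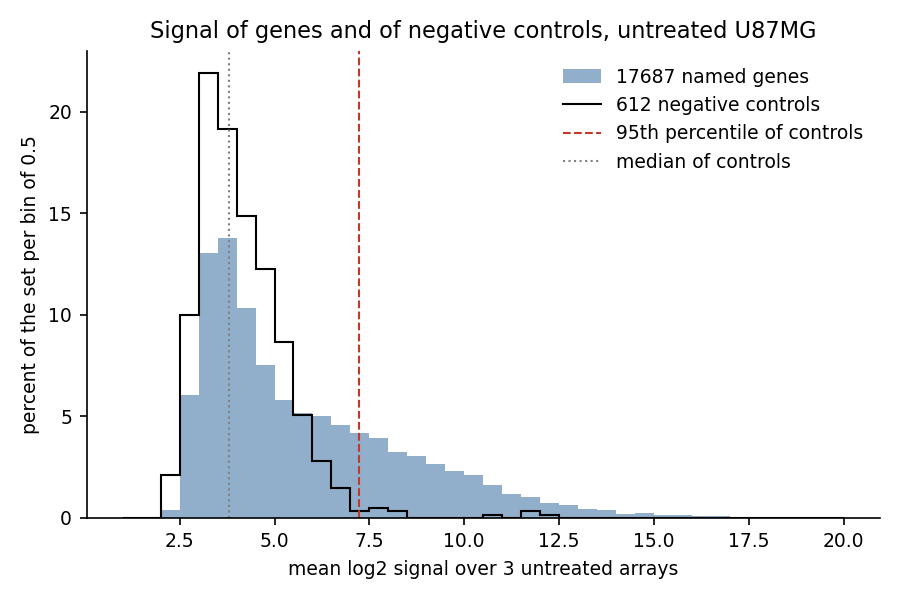
Share of the 17687 named genes (filled) and of the 612 negative control probe sets (line) per bin of 0.5 of the mean log2 signal over the 3 untreated arrays (x axis, log2; y axis, percent of each set). The bulk of genes lies in the same range as the controls. A tail of genes extends past the mean 95th percentile of the controls, 7.24 (dashed), and the mean median of the controls is 3.81 (dotted).

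The 3 arrays did not stand equally close. Across the 17687 genes, which are not independent replicates, Pearson correlations were 0.929 between replicates 1 and 2, 0.921 between 1 and 3, and 0.953 between 2 and 3. The arrays, replicate 1 above all, deviated from each other with gene length, as described at the end. Some of the counts that change when replicate 1 is left out are given there, but not all of them. The top of the scale was crowded: 22 probe sets lay within 0.15 of the highest value of the array on each of the 3 arrays (maxima 19.27, 19.22 and 19.26), 13 of them positive controls and 3 of them named genes, so the order among the very brightest is not resolved. Probe sets differ in their probes, so ranks order signals and not transcript numbers.

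The brightest genes were those of glycolysis, cytoskeleton, translation and metal binding. GAPDH, the glycolytic dehydrogenase, read 19.24, 19.19 and 19.23 in replicates 1, 2 and 3. TUBA1B, an alpha tubulin, read 19.24, 19.19 and 19.20. ENO1, the glycolytic enolase, read 19.18, 19.13 and 19.18. These 3 genes make up the named part of the crowded top, with SDs of 0.03 each. The elongation factor EEF1A1 followed at 19.03 ± 0.11 (SD, n = 3), the lactate dehydrogenase subunit LDHA at 18.36 ± 0.02, the actin ACTG1 at 18.36 ± 0.21, the metallothionein MT2A at 18.36 ± 0.12 and the ATP synthase beta subunit ATP5F1B at 18.23 ± 0.31. RPL38 and RPS15A, proteins of the large and the small ribosomal subunit, read 18.13 ± 0.13 and 18.11 ± 0.10. Of the 30 highest genes, 27 had an SD under 0.5 over the 3 arrays. The exceptions were CALU (a calcium-binding protein of the secretory pathway; 16.40, 18.20 and 18.23), the histone gene H4C5 (17.89, 16.89 and 16.71) and EIF5A (an initiation factor; 17.56, 16.35 and 16.97). In CALU replicate 1 was the low array, whereas in H4C5 and EIF5A it was the high one.

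The remaining genes of the top 30 fell into the same classes with a few additions. ASPH, an aspartate hydroxylase of the endoplasmic reticulum, read 17.88 ± 0.06 and the ferritin light chain FTL 17.88 ± 0.46. TUBA1C read 17.79 ± 0.23, ANXA2 17.67 ± 0.31 and TMBIM6, a membrane protein of the endoplasmic reticulum, 17.43 ± 0.32. UCHL1, a ubiquitin hydrolase abundant in neurons and neuroendocrine cells, read 17.55, 17.55 and 17.07. STT3A (the catalytic subunit of an oligosaccharyltransferase), PPIA (cyclophilin A), PA2G4, RPL9, RPS23, YBX1 (a cold shock domain protein), LDHB, RPS4X, EIF1 and RPL12 completed the set at means of 16.74 to 17.28. Tubulin, actin, ribosomal, histone and metallothionein genes have near-identical copies in the genome, so the assignment of their signals to single genes is uncertain.

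1 gene of the top 30 does not code for protein. MIR4485 read 18.70, 18.70 and 18.42, and was the only one detected of 11 microRNA genes with a symbol on the array, the next one being MIR205 at a mean of 5.77. Its probe set reads whole-transcript RNA and not the mature microRNA alone, and the sequence of this microRNA is known to occur also in the mitochondrial 16S ribosomal RNA. The mature sequence, with the seed (bases 2 to 8) in capitals, and the hairpin it is cut from are shown because this is the one noncoding gene among the 30 highest signals. Both come from RefSeq on GRCh38.p14.
hsa-miR-4485-3p: uAACGGCCgcgguacccuaa
MIR4485 hairpin, minus strand of chr11:10508270-10508326: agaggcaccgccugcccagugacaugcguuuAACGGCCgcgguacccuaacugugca
Probe sets with no symbol were bright at the same place on the scale: of 10 probe sets whose identifiers place them on the mitochondrial chromosome, 6 lay within 0.15 of the array maximum on each array, and the lowest of the 10 had a mean of 13.20. Their genes are not named here, and what part such transcripts have in the signal of MIR4485 was not tested.

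Among other noncoding genes 12 of 306 long noncoding RNA genes were detected (3.92%), against 3520 of 17249 protein-coding genes (20.4%). CRNDE, a long noncoding RNA known to be high in gliomas and colorectal tumors, was the brightest of the 12 at 11.10, 12.07 and 11.37. Several of the others are read-through loci that share exons with coding genes, among them ZFP91-CNTF at 10.37 ± 0.97 and HNRNPUL2-BSCL2 at 10.15 ± 0.38, so their signals cannot be assigned to the noncoding gene. These 3 genes were picked after their values were seen.

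Identity lists differed in their detected share. Of 26 measured genes of the mesenchymal glioma list 18 were detected (69.2%, against 20.1% of all genes), 1 was mixed and 7 were not detected, and the limma test called 16. The median level of the list was 10.42, against 4.93 for all genes. Many of its members are shared with connective tissue cells, so the count does not by itself assign a glioma class. The members of this and of the other lists were chosen with earlier results of these data known. Their detected shares are therefore not independent of these data. The lists nearest in kind stood near the share of all genes, mesenchymal transition regulators at 20% and fibroblast and matrix genes at 22.2%. ANXA2, a calcium-dependent membrane-binding protein, read 17.34, 17.71 and 17.96. TGFBI, a matrix protein induced by TGF-beta, read 16.59, 16.15 and 16.27. VIM, the intermediate filament protein of mesenchymal cells, read 14.92, 15.39 and 15.45, on average 8.02 ± 0.40 (SE) above the 95th percentile of the controls (limma adjusted p = 2.8e-06). S100A11 read 15.43, 14.46 and 14.38. For these 4 genes the arrays lay within about 1 log2 unit of each other and far above any threshold used. ANXA1, an annexin with anti-inflammatory action, was an exception to that closeness, at 13.45 in replicate 1 against 17.12 and 17.73 in replicates 2 and 3.

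The other detected members covered adhesion, protease receptors and transcription factors. LGALS1, a galactose-binding lectin, averaged 13.08 ± 0.57, CAV1 (the caveolar coat protein) 12.78 ± 1.33, PLAUR (the urokinase receptor) 12.43 ± 0.54 and FOSL1 (an AP-1 subunit) 12.25 ± 0.54. LOX, which cross-links collagen, averaged 11.58 ± 0.86, the matrix protein TNC 11.37 ± 0.35, the hyaluronan receptor CD44 10.86 ± 0.38 and the metalloproteinase inhibitor TIMP1 10.72 ± 0.30. The receptor tyrosine kinase MET read 9.11, 10.39 and 10.90, and RUNX1 8.36, 10.34 and 9.61, both lowest in replicate 1. The members nearest to the threshold were NF1 (8.40 ± 0.56), LGALS3 (8.26 ± 0.88) and THBS1 (7.79 ± 0.56), and the last 2 were detected on each array but not called by limma (adjusted p = 0.11 and 0.38). NF1 is a tumor suppressor gene that the driver list below also holds. Its detection is counted here but is not read as a sign of the mesenchymal pattern.

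8 members stayed apart from the rest. CHI3L1, a secreted chitinase-like protein that often serves as a single marker of the mesenchymal class, read 3.48, 3.16 and 3.40, below the control median of the same array on every array. RELB read 3.48 ± 0.88, CXCL8 4.48 ± 1.19, the cytokine gene IL6 4.95 ± 0.33, FN1 (fibronectin) 5.19 ± 0.60, TRADD 5.55 ± 1.04 and CEBPB 5.98 ± 0.26. STAT3 was mixed at 6.14, 7.29 and 6.09. Among the 7 not detected, 3 encode secreted inflammatory factors (CHI3L1, CXCL8 and IL6) and 2 encode nuclear factors of cytokine responses (RELB and CEBPB).

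The proneural and classical patterns had 1 detected gene each by the same call. Of 13 measured proneural genes 1 was detected (7.69%, against 20.1% of all genes), the adhesion molecule NCAM1 at 8.47, 8.03 and 8.90. The basic helix-loop-helix factor TCF12 was mixed at 7.19, 8.06 and 8.81, and TCF4 at 5.17, 4.89 and 7.14. DLL3 (3.81 ± 0.42), OLIG2 (3.49 ± 0.84), PDGFRA (2.89 ± 0.37), NKAIN1 (2.68 ± 0.55) and ERBB3 (2.67 ± 0.35) were among the 10 not detected. Of 12 classical genes 1 was detected (8.33%, against 20.1% of all genes), the kinase AKT2 at 10.21 ± 0.49. On lists this short neither share is a clear difference from that of all genes. EGFR, the receptor most often amplified in glioblastoma, was mixed at 6.25, 5.09 and 7.38, passing the threshold in replicate 3 alone. JAG1 (5.70 ± 1.09), HES1 (5.28 ± 1.77), NES (4.47 ± 0.07), NOTCH3 (3.50 ± 0.36) and FGFR3 (3.34 ± 0.48) were not detected.

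**Figure D2:**
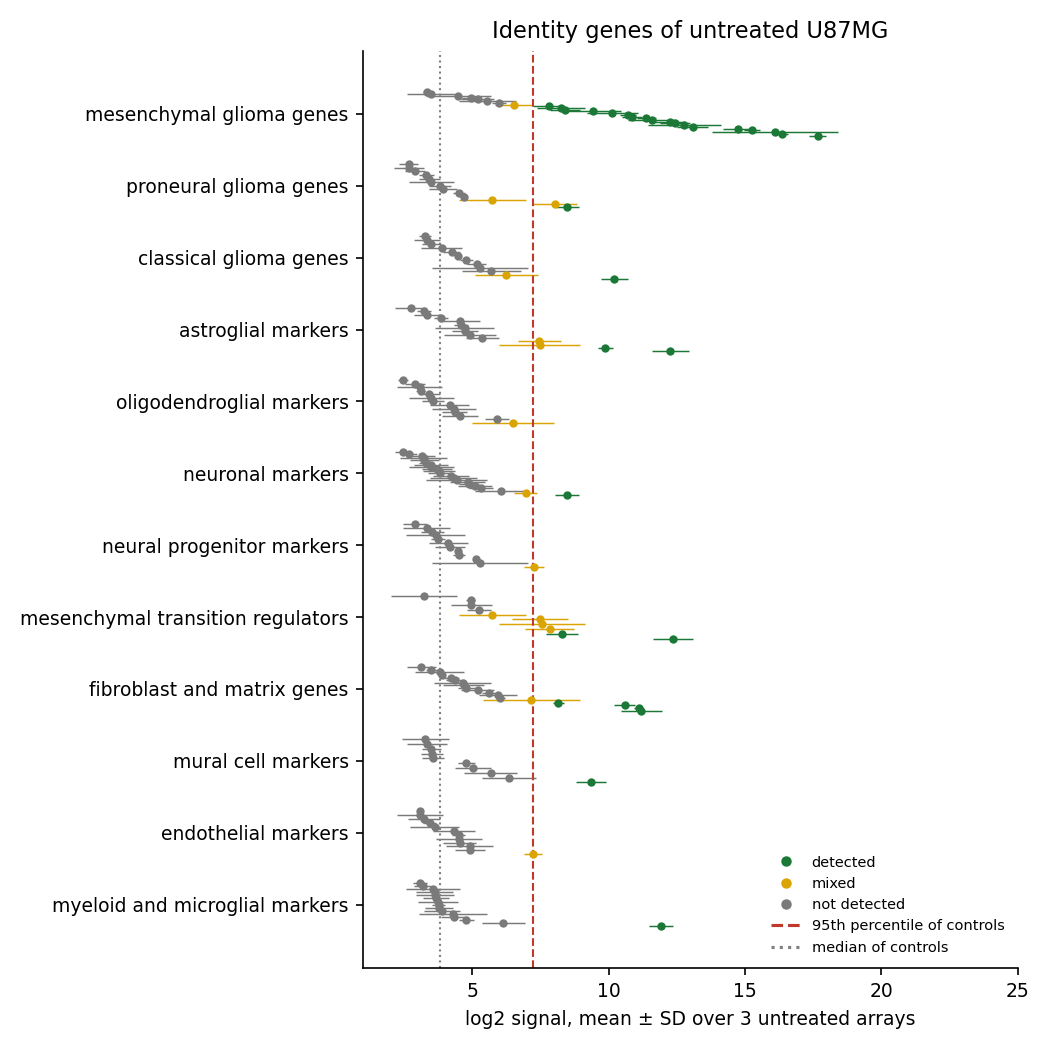
Log2 signal of each measured member (point, mean; bar, SD over the 3 untreated arrays) of 12 identity lists, coloured by the detection call, with the mean 95th percentile (dashed) and the mean median (dotted) of the negative controls. The mesenchymal glioma row reaches 17.67, and the oligodendroglial, neural progenitor and endothelial rows hold no detected gene. Over all genes 20.1% were detected.

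Astroglial markers were detected for 2 of 14 measured genes (14.3%, against 20.1% of all genes, which on so few genes is no clear difference), and limma called the same number. ID3, an inhibitor of basic helix-loop-helix factors, read 13.03, 12.05 and 11.72. GLUL, the glutamine synthetase of astrocytes and many other cells, read 9.97, 10.09 and 9.57. Neither gene is confined to astrocytes. The glutamate transporter gene SLC1A3 was mixed at 8.20, 6.60 and 7.59, and the gap junction gene GJA1 at 5.97, 7.51 and 8.94, so that the arrays on either side of the threshold differed between the 2 genes. The defining marker GFAP read 3.45, 2.94 and 3.30, at or below the control median of each array. S100B read 5.21, 4.69 and 4.28, AQP4 (the astrocytic water channel) 5.95, 4.74 and 4.04, and ALDH1L1 4.88, 4.46 and 4.40, all between the median and the 95th percentile of the controls. SOX9 (5.37 ± 0.62), ALDOC (4.72 ± 1.08), NFIA (4.54 ± 0.74), SLC1A2 (3.85 ± 0.24), FGFR3 (3.34 ± 0.48) and HEPACAM (2.73 ± 0.58) completed the 10 genes not detected.

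None of 13 oligodendroglial markers was detected on each array, against 20.1% of all genes, and limma called 0 of them. On so few genes this is no clear difference. The myelin-associated enzyme gene CNP was mixed, above the threshold in replicate 1 at 8.17 and below it at 5.33 and 5.95 in the others. SOX10 read 5.90 ± 0.43, and the myelin genes MOG, MAG, MOBP and MBP read 4.35 ± 0.47, 4.33 ± 0.81, 4.16 ± 0.71 and 3.06 ± 0.84. OLIG1, a transcription factor of the lineage, read 2.65, 2.34 and 2.34. GPR17 (4.55 ± 0.65), CSPG4 (3.56 ± 0.41), NKX2-2 (3.42 ± 0.39) and ERMN (3.10 ± 0.16) also lay in the range of the controls.

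Of 21 neuronal markers 1 was detected (4.76%, against 20.1% of all genes), NCAM1 as above, which glial and other cells express too. On a list of this size the lower share is no clear difference. GAD1, an enzyme of GABA synthesis, was mixed at 7.11, 7.27 and 6.49. ENO2, the neuronal enolase, read 6.05 ± 0.96, SNAP25 5.31 ± 0.44 and GAP43 5.10 ± 0.63. The lowest 4 members were ELAVL4 (3.22 ± 0.86), the vesicular transporters SLC32A1 (3.15 ± 0.47) and SLC17A7 (2.69 ± 0.27), and STMN2 (2.45 ± 0.29).

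Neural progenitor markers were detected for 0 of 12 genes, against 20.1% of all genes, and limma called 0. With so few genes this too is no clear difference. The patterning factor PAX6 came closest at 6.84, 7.41 and 7.55, below the threshold in replicate 1 and above it in replicates 2 and 3. The Notch target HES1 read 7.32, 4.23 and 4.29, the first value under the higher threshold of its array, and NOTCH1 read 5.14 ± 0.11. SOX2, a factor of neural stem cells, read 4.60, 4.24 and 4.67, and the intermediate filament gene NES 4.50, 4.53 and 4.39, with the 3 arrays close together. PROM1 (4.17 ± 0.55), MSI1 (4.12 ± 0.72), HES5 (3.73 ± 0.26), EMX2 (3.66 ± 1.08), SOX1 (3.52 ± 0.42), FABP7 (3.32 ± 0.85) and SOX11 (2.88 ± 0.43) were not detected. Of 10 pluripotency genes 1 was detected (10%, against 20.1% of all genes, again no clear difference), MYC at 9.83 ± 0.20, a growth regulator of most dividing cells. SALL4 read 6.50 ± 0.36, NANOG 4.33 ± 0.69, PRDM14 3.85 ± 0.68, KLF4 3.83 ± 0.25, ZFP42 3.36 ± 0.98, LIN28B 3.30 ± 0.08 and LIN28A 3.23 ± 0.60.

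The genes that carry a mesenchymal transition were split. SNAI2, the Slug repressor of epithelial genes, read 11.53, 12.63 and 12.89, and CDH2, N-cadherin, 8.15, 7.77 and 8.91. ZEB2 (6.91, 7.87 and 8.73), PRRX1 (5.90, 9.05 and 7.73) and ZEB1 (6.30, 8.15 and 8.02) were above the threshold in replicates 2 and 3 and below it in replicate 1. TCF4 was mixed, and FOXC2 (5.24 ± 0.45), TWIST1 (4.95 ± 0.75), TWIST2 (4.93 ± 0.16) and SNAI1 (3.21 ± 1.22) were not detected. The list thus had 2 of 10 detected (20%), close to the share of all genes, and 5 of 10 without replicate 1, with 26.4% of all genes detected there. Limma called 1 of the 10, SNAI2, and not CDH2 (adjusted p = 0.11).

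Of 18 fibroblast and matrix genes 4 were detected (22.2%, near the 20.1% of all genes) and limma called 3: the collagen chains COL1A2 (10.39, 11.85 and 11.35), COL6A3 (11.22, 10.93 and 11.13) and COL6A2 (8.40, 8.02 and 8.06), and SPARC, a collagen-binding glycoprotein (10.70, 10.13 and 10.91). COL6A2 was the one not called by limma (adjusted p = 0.092). COL1A1, whose product forms type I collagen with that of COL1A2, read 6.03 ± 0.17 and was not detected. FBN1 was mixed at 8.18, 5.10 and 8.18. The lowest 4 were COL5A1 (3.87 ± 0.11), POSTN (3.80 ± 0.90), THY1 (3.50 ± 0.21) and PDPN (3.13 ± 0.53). Over all collagen chains 3 of 41 were detected (7.32%), over laminin chains 1 of 8 (LAMC1, 11.45 ± 0.51), and over matrix metalloproteinases 1 of 22 (4.55%), MMP2 at 13.11, 12.95 and 12.94. MMP3 (7.19, 7.67 and 7.61) and MMP14 (7.26, 7.43 and 6.49) were mixed.

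Most markers of other cell types were not detected, as were 66.6% of all genes, of which 20.1% were detected, so a low count on a short list is not by itself a result about that list. Endothelial markers were detected for 0 of 12 genes, with EGFL7 mixed at 7.23 ± 0.34 and CDH5, PECAM1 and KDR at 3.07 ± 0.05, 3.43 ± 0.22 and 3.22 ± 0.58. Of 15 myeloid and microglial markers 1 was detected, CD68 at 12.34, 11.43 and 11.97, a lysosomal membrane protein that is not confined to myeloid cells. The defining myeloid genes PTPRC (4.28 ± 1.23), SPI1 (3.76 ± 0.24), CSF1R (3.74 ± 0.73), AIF1 (3.67 ± 0.47) and ITGAM (3.08 ± 0.25) were not detected. Of 10 mural cell markers ACTA2 was detected at 9.35 ± 0.55, with CNN1 at 6.35 ± 0.98, TAGLN at 5.67 ± 0.98 and PDGFRB at 3.51 ± 0.40 not detected. Of 15 epithelial markers KRT8 was detected at 7.97 ± 0.49 but not called by limma (adjusted p = 0.28), with its partner keratin KRT18 at 3.76 ± 0.44 and CDH1 and EPCAM at 3.67 ± 0.77 and 3.53 ± 0.56. Of 9 muscle markers ACTA1 was detected at 8.01 ± 0.23 (limma adjusted p = 0.19), an actin gene whose coding sequence is close to that of other actins. No member was detected of 12 lymphoid, 6 melanocyte, 9 liver or 6 erythroid markers, with highest means of 5.73 (NKG7), 4.38 (MITF), 3.93 (ALB) and 5.70 (HBA1).

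The genes around CDKN2A on the short arm of chromosome 9 were read in chromosome order, since this locus is commonly lost in glioblastoma. CDKN2A, which encodes cell cycle inhibitors (chr9:21967752-21995324 on GRCh38.p14), read 2.57, 2.74 and 2.86, below the control median on each array. Its neighbour CDKN2B read 4.38, 4.64 and 3.78, and MTAP, a methionine salvage enzyme, 3.62, 3.83 and 3.88. From MLLT3 (start 20341669) to ELAVL2 (end 23850601), 12 of 12 listed genes were not detected, among them MLLT3 (3.90 ± 0.88), FOCAD (4.23 ± 0.36), HACD4 (3.07 ± 0.37), KLHL9 (3.43 ± 0.74), DMRTA1 (3.55 ± 0.51) and the interferon genes IFNB1 (2.76 ± 0.22), IFNA1 (2.75 ± 0.37) and IFNA2 (3.80 ± 0.52). ELAVL2 (4.59 ± 1.62), which belongs to a neuronal family, had 1 array at 6.47 and the others at 3.68 and 3.63. Farther from the locus CAAP1 (chr9:26840685-26892802) was mixed at 6.76, 7.46 and 7.30, and PLAA (chr9:26903372-26947242) was detected at 7.87, 10.22 and 10.13. Several of the 12 genes are silent in most cell types, over all genes 66.6% were not detected, and a signal at the level of the controls cannot tell a lost gene from a silent one.

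**Figure D3:**
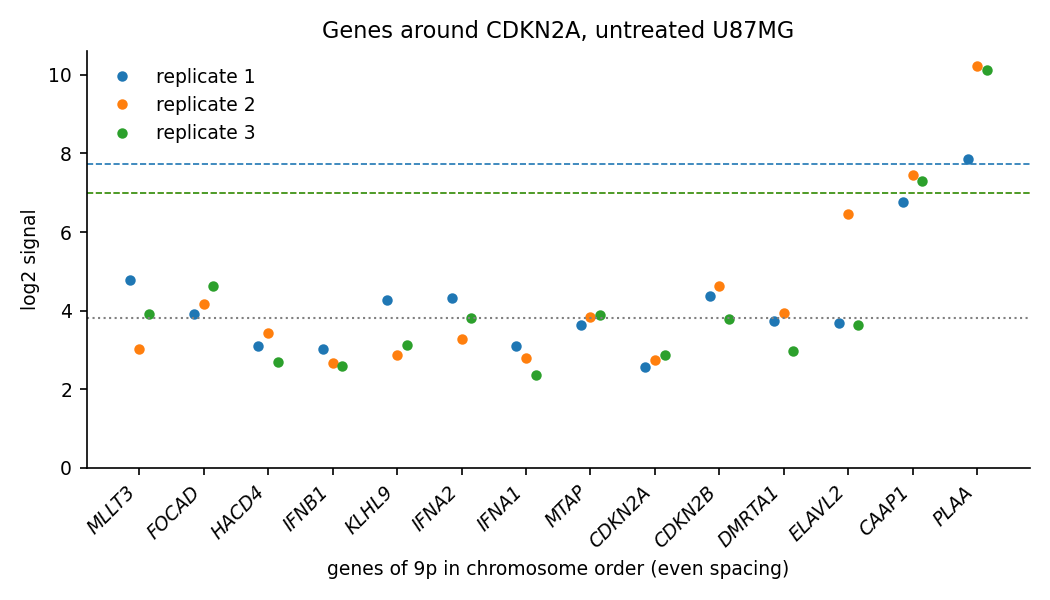
Log2 signal in replicates 1, 2 and 3 of 14 genes of the short arm of chromosome 9 in chromosome order at even spacing, with each array's 95th percentile of the negative controls (dashed; replicates 2 and 3 overlap) and their mean median (dotted). CDKN2A lies between 2.57 and 2.86, and PLAA is the one gene above the dashed lines on each array.

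Of 13 measured tumor suppressor and driver genes 3 were detected (23.1%, near the 20.1% of all genes), IDH1 (9.47 ± 0.42), NF1 (8.40 ± 0.56) and MDM2 (8.60, 7.23 and 8.87), an inhibitor of p53, and the last was not called by limma (adjusted p = 0.13). RB1 spanned the threshold widely at 4.87, 8.20 and 9.95, with replicate 1 lowest. IDH2 was mixed at 7.79, 6.51 and 6.18. PIK3R1 (6.20 ± 0.68), ATRX (4.39 ± 0.48), MGMT (3.62 ± 0.24), a DNA repair enzyme often silenced in gliomas, and TERT (2.86 ± 0.48), the catalytic subunit of telomerase, were not detected.

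Of the 2 subunits of the receptor that P-bi-TAT addresses, neither was detected on each array. ITGAV read 4.63, 6.20 and 8.89 and was above the 95th percentile of the controls in replicate 3 alone, so the arrays do not settle its level. ITGB3 read 7.40, 6.86 and 6.85, just under the threshold of its array each time. Other integrin subunits were clearly above: ITGB1 read 11.17, 12.74 and 13.03, ITGA3 read 11.22, 11.20 and 10.79, and ITGA5, which pairs with ITGB1 as a fibronectin receptor, 11.27, 10.59 and 10.37. ITGB5 (6.02 ± 0.49) and ITGA6 (5.75 ± 0.81) were not detected. Over all integrin subunits 4 of 25 were detected (16%, against 20.1% of all genes) and limma called 3, the other detected one, ITGAE at 8.32 ± 0.09, having an adjusted p of 0.061. Of the nuclear thyroid hormone receptors THRA read 7.07, 6.74 and 5.42 and THRB 4.67, 3.76 and 3.58, both not detected. RXRB, a partner of nuclear receptors, was detected at 8.24 ± 0.39, and RXRG was not at 2.62 ± 0.43. The deiodinases DIO1 (4.30 ± 1.25), DIO2 (3.56 ± 0.90) and DIO3 (3.53 ± 0.20) and the transporters SLC16A10 (6.68 ± 0.42) and SLCO1C1 (3.44 ± 0.48) were not detected.

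Proliferation genes were detected for 18 of 20 members (90.0%) and glycolytic genes for 15 of 19 (78.9%), against 20.1% of all genes. Limma called 18 and 15. PLK1, a mitotic kinase, read 15.79, 14.73 and 14.87, RRM2 (the regulated subunit of ribonucleotide reductase) 13.16 ± 0.11, CDC20 13.00 ± 0.11, TYMS 12.70 ± 0.10 and PCNA, the sliding clamp, 12.66 ± 0.80. MKI67 averaged 12.26 ± 0.32. AURKB (7.41 ± 0.58) and BIRC5 (7.39 ± 0.79) were mixed. In glycolysis, LDHB averaged 16.80 ± 0.33 and ALDOA 15.26 ± 0.38, while PFKL (7.74 ± 1.13) was mixed and HK2 (6.46 ± 0.23), ENO2 and ALDOC were not detected. HK1, the other hexokinase of the list, read 10.56, 8.61 and 9.48. Genes of growth arrest were detected for 6 of 12 members (50%), with GADD45A at 10.54 ± 0.57, TXNIP at 10.33 ± 0.25, the cyclin-dependent kinase inhibitor CDKN1A at 9.01 ± 0.28, KLF6 at 8.95 ± 0.89 and CDKN1B at 8.40 ± 0.91, the last not called by limma (adjusted p = 0.13). CCNG2 was mixed at 3.94, 7.03 and 4.10, and GAS6 (6.07 ± 0.15), CDKN2D (5.33 ± 0.30), CDKN1C (4.49 ± 0.29), KLF4 and GAS1 (3.26 ± 0.22) were not detected.

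Of 20 glioma-secreted factors 6 were detected (30.0%, against 20.1% of all genes). VEGFA, the main angiogenic factor, read 12.73, 12.70 and 13.04, and MIF 11.75 ± 0.38. FGF2, an angiogenic and glial growth factor, read 8.07, 9.74 and 10.31, TGFB1 10.16, 8.57 and 8.83, and CSF1, which supports macrophages, 9.60, 9.06 and 8.73. VEGFC was detected at 8.74 ± 0.80 and VEGFB was mixed at 7.23 ± 0.57. The lowest 4 were the interleukin gene IL1B (4.05 ± 0.60), CCL2 (3.77 ± 0.92), HGF (3.76 ± 0.38) and CXCL1 (3.67 ± 0.55).

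Gene families with general cellular tasks were detected for most members, against 20.1% of all genes. Of 51 families 16 had at least 50% of their measured members detected and 21 had none. Of 53 cytoplasmic ribosomal protein genes, paralogs included, 50 were detected (94.3%), and the 3 not detected were RPL3L, RPL39L and RPL10L, paralogs known for expression in muscle or testis. ATP synthase genes were detected for 15 of 17 members, cytoplasmic aminoacyl-tRNA synthetases for 14 of 16 and CCT chaperonin subunits for 7 of 8, the exception being CCT6B. Complex I subunits were detected for 27 of 32 members (NDUFA9, 14.07 ± 0.20), proteasome subunits and assembly factors for 37 of 44 (PSMB7, 14.79 ± 0.62), translation factors for 36 of 43 and heterogeneous nuclear ribonucleoproteins for 17 of 22 (HNRNPA1, 16.70 ± 0.31). Cytochrome c oxidase subunits were detected for 11 of 17 members, and the 6 not detected, COX7A1, COX6A2, COX4I2, COX7B2, COX8C and COX6B2, are isoforms known for muscle, lung or testis. Mitochondrial ribosomal proteins had 44 of 74 detected (59.5%), with MRPL51 highest at 15.86 ± 0.19. Of 100 highest genes 25 were cytoplasmic ribosomal proteins, which make up 0.300% of all genes.

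**Figure D4:**
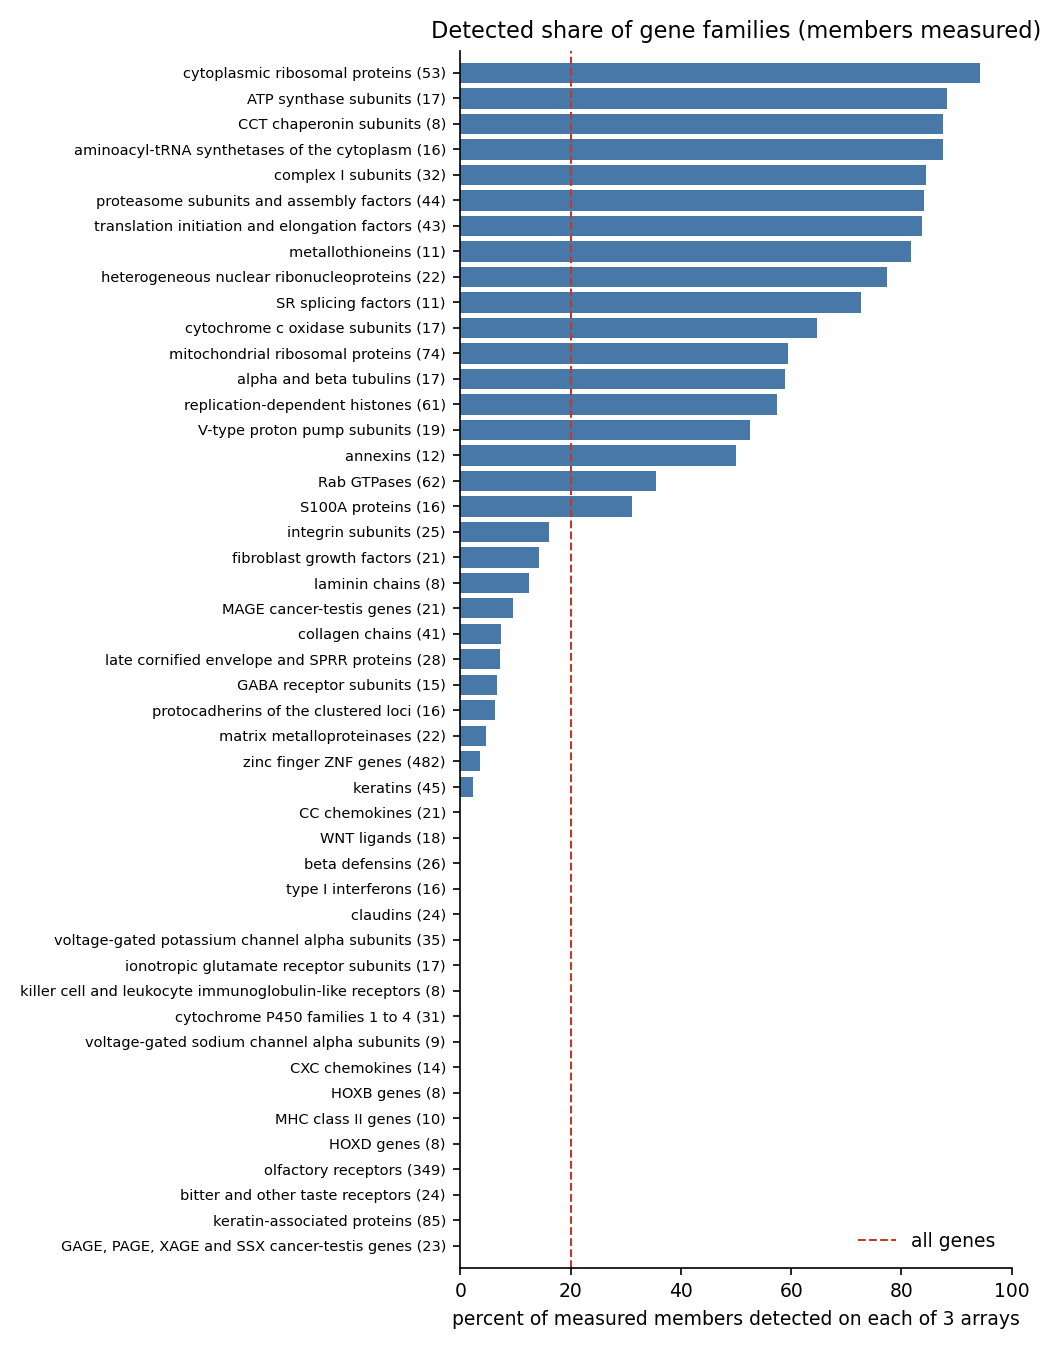
Percent of measured members detected on each of the 3 untreated arrays (x axis) for gene families with 8 or more measured members (number in brackets), with the 20.1% of all genes as a dashed line. Cytoplasmic ribosomal proteins stand at 94.3%, and olfactory receptors at 0 of 349.

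Some families were bright in part, where 20.1% of all genes were detected. Metallothioneins, which bind zinc and copper, were detected for 9 of 11 members, the exceptions being MT3 and MT4, and MT1B, MT1X and MT1G averaged 15.32 ± 0.32, 14.58 ± 0.27 and 14.21 ± 0.12. These genes are highly similar in sequence, and the symbol of a probe set may not name the only transcript it binds. Annexins were detected for 6 of 12 members, with ANXA5 at 14.02 ± 0.65, and S100A proteins for 5 of 16, with S100A10, the partner of ANXA2, at 14.35 ± 0.66 and S100A6 at 9.95 ± 0.64. Replication-dependent histones were detected for 35 of 61 members (57.4%), H4C3 averaging 15.48 ± 0.68. Rab GTPases were detected for 22 of 62 (35.5%), with RAB7A at 14.99 ± 0.17. Zinc finger ZNF genes were detected for 17 of 482 (3.53%), led by ZNF143 (9.53, 11.95 and 11.75), ZNF134 (10.48 ± 0.67) and ZNF264 (9.95 ± 0.24), and only 46 of them (9.54%) were at or below the control median on each array, against 15.2% of all genes.

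Many families of specialised cells had no detected member. Over all genes 20.1% were detected, so a count of 0 in a small family is not by itself a result about that family. None of 349 olfactory receptor genes was detected or mixed, and 160 of them (45.8%, against 15.2% of all genes) were at or below the control median on each array. The highest olfactory receptor, OR2T5, read 6.56, 5.48 and 6.39, and the lowest, OR14I1, 2.39, 2.22 and 2.45. Limma called 0 of 349. None was detected either of several other families, some of which held mixed members. This was so for taste receptors (0 of 24 detected), beta defensins (0 of 26), type I interferons (0 of 16, with 11 at or below the control median), keratin-associated proteins (0 of 85, with KRTAP5-1 mixed at 7.33 ± 0.38), claudins (0 of 24, with CLDN12 mixed at 7.19, 9.21 and 8.62), voltage-gated potassium channel alpha subunits (0 of 35, with KCNA5 mixed at 6.91 ± 0.37), sodium channel alpha subunits (0 of 9), ionotropic glutamate receptor subunits (0 of 17), cytochrome P450 families 1 to 4 (0 of 31, with 3 mixed, of which CYP1B1 at 6.72, 8.89 and 9.06 and CYP2R1 were detected without replicate 1), CC chemokines (0 of 21), CXC chemokines (0 of 14) and WNT ligands (0 of 18, with WNT5A mixed at 6.53 ± 0.82). HOX genes, which keep the positional identity of body regions and are silent in most of the normal forebrain, were detected for 0 of 1 HOXA, 0 of 8 HOXB, 0 of 6 HOXC and 0 of 8 HOXD genes measured here, the highest being HOXB2 at 5.64 ± 0.61.

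Some families had 1 to 3 detected members among mostly not detected ones. Over all genes 20.1% were detected and 66.6% were not detected. GABRQ, a theta subunit of the GABA receptor, read 9.86, 9.09 and 9.57, while 13 of 15 GABA receptor genes were not detected and GABRA3 was mixed at 7.30 ± 0.44. PCDHB11 read 9.72, 9.44 and 9.20, the one detected of 16 clustered protocadherins, and the next highest, PCDHB12, read 5.49 ± 0.99. LCE1E, a gene of the late cornified envelope of skin, read 10.16, 10.26 and 10.29 and LCE1C, which limma did not call, 7.89, 8.12 and 8.05, with 25 of 28 members not detected. The cancer-testis genes MAGEA6 (9.37, 9.24 and 8.35) and MAGEA3 (8.66, 7.85 and 8.95) were detected of 21 MAGE genes, and these 2 are near-identical in sequence. GAGE, PAGE, XAGE and SSX genes were detected for 0 of 23. FGF13 (8.27 ± 0.25) and FGF8 (7.62 ± 0.47) joined FGF2 among 21 fibroblast growth factor genes, and neither was called by limma (adjusted p = 0.086 for FGF13 and 0.71 for FGF8). HLA-F was the one detected of 4 MHC class I genes at 7.85 ± 0.68 but was not called by limma (adjusted p = 0.38), with HLA-G mixed at 7.59 ± 0.52, HLA-C at 6.10 ± 0.88 and HLA-E at 6.63 ± 0.12 not detected, and 0 of 10 class II genes were detected, HLA-DRB1 being mixed at 7.39 ± 0.49. For GABRQ, PCDHB11 and LCE1E the 3 arrays lay within 1 log2 unit of each other (limma adjusted p = 0.0012, 0.0013 and 0.00032).

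The detected genes shared a promoter feature that the call did not use. In the RefSeq window of 250 bases before to 50 bases after the gene start, available for 14250 of the 17687 genes on GRCh38.p14, the median number of CG dinucleotides was 27 for detected, 26 for mixed and 18 for not detected genes, with quartiles of 20 and 34 for detected and 5 and 30 for not detected genes. At least 10 CG dinucleotides were present in 93.2% of detected, 91.3% of mixed and 63.6% of not detected genes, against 73.8% of all 14250 (and 56.0% of the 27305 promoters in the table). By 10 equal groups of the mean signal, from low to high, the median was 9, 9, 11, 16, 22, 25, 26, 27, 27 and 27, so it climbed over the groups of low signal and was flat over those of high signal. The motif TATAAA, searched on both strands anywhere in the window, occurred in 6.13% of detected, 4.68% of mixed and 11.5% of not detected genes, in 9.41% of all 14250, and in 12% of all promoters of the table. Families differed, whatever the call of their members: of the 57 promoters of measured histone genes, 33 had at least 10 CG dinucleotides and 39 held TATAAA (68.4%). Of 280 olfactory receptor promoters 4 had at least 10 CG dinucleotides (1.43%). The median genomic length was 26.7 kb for detected, 45.9 kb for mixed and 22.1 kb for not detected genes, so the mixed genes were the longest. These are descriptions over genes, which are not independent, and a motif match is no proof of a site.

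The 250 bases before the start are shown for 7 genes picked after their values were seen, to set bright and dim genes with and without CG-rich starts side by side, each read 5′ to 3′ along the gene's own strand on GRCh38.p14. Capitals mark CG dinucleotides and TATAAA on the strand shown. TUBA1B and MT2A are bright and CG-rich (38 and 32 CG), and MT2A also holds TATAAA.
TUBA1B, chr12:49131396-49131645, minus strand: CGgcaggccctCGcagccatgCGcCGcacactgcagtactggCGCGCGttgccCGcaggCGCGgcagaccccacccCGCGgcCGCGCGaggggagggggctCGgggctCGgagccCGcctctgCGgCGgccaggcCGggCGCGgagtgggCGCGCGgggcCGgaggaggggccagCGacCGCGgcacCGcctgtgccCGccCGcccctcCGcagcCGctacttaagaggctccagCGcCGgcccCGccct
MT2A, chr16:56608334-56608583, plus strand: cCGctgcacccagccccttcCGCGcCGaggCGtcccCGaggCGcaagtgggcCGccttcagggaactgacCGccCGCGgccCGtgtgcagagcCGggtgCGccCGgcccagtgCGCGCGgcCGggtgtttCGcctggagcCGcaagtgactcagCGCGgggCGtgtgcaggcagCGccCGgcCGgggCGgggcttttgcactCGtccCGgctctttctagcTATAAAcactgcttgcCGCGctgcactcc
ANXA1 is bright with no CG in this stretch and 1 TATAAA, and CHI3L1, another gene of the mesenchymal list, has 6 CG and 1 TATAAA but a mean of 3.35.
ANXA1, chr9:73151615-73151864, plus strand: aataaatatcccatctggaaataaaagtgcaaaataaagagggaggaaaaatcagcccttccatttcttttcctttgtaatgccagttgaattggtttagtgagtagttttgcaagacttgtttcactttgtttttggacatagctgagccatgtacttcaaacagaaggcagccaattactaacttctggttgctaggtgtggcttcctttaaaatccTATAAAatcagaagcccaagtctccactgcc
CHI3L1, chr1:203186705-203186954, minus strand: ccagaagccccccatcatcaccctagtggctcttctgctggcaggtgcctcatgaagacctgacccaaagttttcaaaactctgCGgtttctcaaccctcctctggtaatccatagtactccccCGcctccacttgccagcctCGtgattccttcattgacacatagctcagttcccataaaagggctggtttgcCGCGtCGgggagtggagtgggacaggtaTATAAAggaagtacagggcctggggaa
SOX2 and CDKN2A have 20 and 24 CG and signals of 4.51 ± 0.23 and 2.73 ± 0.15, within the range of the controls, so that a CG-rich start did not go with a detected signal in each case. CDKN2A has more than 1 promoter, and the stretch lies before the outermost start.
SOX2, chr3:181711675-181711924, plus strand: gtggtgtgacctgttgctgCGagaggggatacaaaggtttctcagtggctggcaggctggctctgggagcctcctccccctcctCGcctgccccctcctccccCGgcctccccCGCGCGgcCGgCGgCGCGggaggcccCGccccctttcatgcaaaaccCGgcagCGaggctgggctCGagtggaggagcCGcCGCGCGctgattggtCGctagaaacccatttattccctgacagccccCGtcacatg
CDKN2A, chr9:21995325-21995574, minus strand: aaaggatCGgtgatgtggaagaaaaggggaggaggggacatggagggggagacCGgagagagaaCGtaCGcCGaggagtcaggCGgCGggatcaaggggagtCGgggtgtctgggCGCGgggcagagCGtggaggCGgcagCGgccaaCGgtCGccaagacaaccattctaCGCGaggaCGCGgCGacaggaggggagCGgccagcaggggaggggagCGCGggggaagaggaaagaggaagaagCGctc
OR14I1, the dimmest olfactory receptor, has 1 CG.
OR14I1, chr1:248702767-248703016, minus strand: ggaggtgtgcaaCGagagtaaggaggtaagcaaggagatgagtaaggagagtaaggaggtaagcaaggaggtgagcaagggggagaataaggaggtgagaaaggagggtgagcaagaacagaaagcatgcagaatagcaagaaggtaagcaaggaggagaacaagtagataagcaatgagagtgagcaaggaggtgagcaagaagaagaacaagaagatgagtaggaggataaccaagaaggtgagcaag

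Spread between the arrays was uneven. The median SD over the 3 arrays was 0.53 over all genes, 0.48 over detected, 0.88 over mixed and 0.50 over not detected genes. The mixed call asks for values on both sides of the threshold, so a larger SD there is built into the call. Of 3549 detected genes 317 (8.93%) had an SD above 1. In 234 of these 317 replicate 1 was the lowest array. TOP2A, the DNA topoisomerase of dividing cells, had the largest SD, with 8.10 in replicate 1 against 11.35 and 12.85 in replicates 2 and 3. ANLN, an actin-binding protein of cytokinesis, read 8.25 against 11.68 and 12.71, and the initiation factor subunit EIF3E 10.52 against 13.89 and 14.07. NAA15, NMD3, SRP72, CSE1L, HAT1 and INTS13 completed the 10 largest SDs together with ANXA1, with SDs of 1.93 to 2.43, and in all 10 replicate 1 was the lowest. The smallest SDs among the 1000 highest genes were those of H4C11 (0.006), SLC1A5, a glutamine transporter (0.013), HNRNPC (0.021), ARPC1A (0.022), LDHA, SMU1, TUBA1B, GAPDH, ENO1 and MKRN1. TUBA1B, GAPDH and ENO1 lay at the crowded top of the scale, which leaves little room for spread, so their SDs say nothing of stable expression.

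Deviations between the arrays went with gene length. Over the 5907 detected and mixed genes, which are not independent, the Pearson correlation of an array's difference from the mean of the other two with log2 length was -0.32 for replicate 1, 0.14 for replicate 2 and 0.30 for replicate 3, and these 3 values are tied to each other because each array enters all of them. In these genes replicate 1 minus the mean of replicates 2 and 3 had a median of 0.41 in the sixth with the shortest genes (up to 9.15 kb), 0.15, -0.02 and -0.37 in the next 3, -0.71 in the fifth and -0.67 in the sixth with the longest genes (102 kb and more). Replicate 1 was more than 1 log2 unit below the mean of the others in 1566 genes and more than 1 above in 666. The counts were 440 and 700 for replicate 2 and 471 and 1186 for replicate 3. These counts, sixths and correlations rest in part on mixed genes, which entered the set only through the arrays where they were high. The median deviation of replicate 1 from the mean of the 3 arrays was -0.53 in mixed and 0.09 in detected genes. Mixed genes were also longer (median 45.9 against 26.7 kb), and the detected genes alone were not tested. By family, histones, which are short genes, had a median deviation of 0.63 in replicate 1 from the mean of the 3 arrays, S100A proteins 0.54 and mitochondrial ribosomal proteins 0.34, against -0.69 for mesenchymal transition regulators and -0.29 for mesenchymal glioma genes. The 95th percentile of the controls in replicate 1 was also the highest of the 3 arrays. The set of detected and mixed genes thus tends to favour genes that are low in replicate 1. What part RNA quality, labelling or the cells had in this deviation was not tested. Without replicate 1, 4661 genes were detected (26.4%) in place of 3549, where a call on fewer arrays can only gain genes. The counts of detected mesenchymal glioma genes (18 of 26), oligodendroglial markers (0 of 13), neuronal markers (1 of 21) and olfactory receptors (0 of 349) were the same without it, whereas GJA1, PAX6, TCF12, CAAP1 and RB1 were among the genes detected without it, and 40 of 482 ZNF genes were detected without it, against 17 with it.

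**Figure D5:**
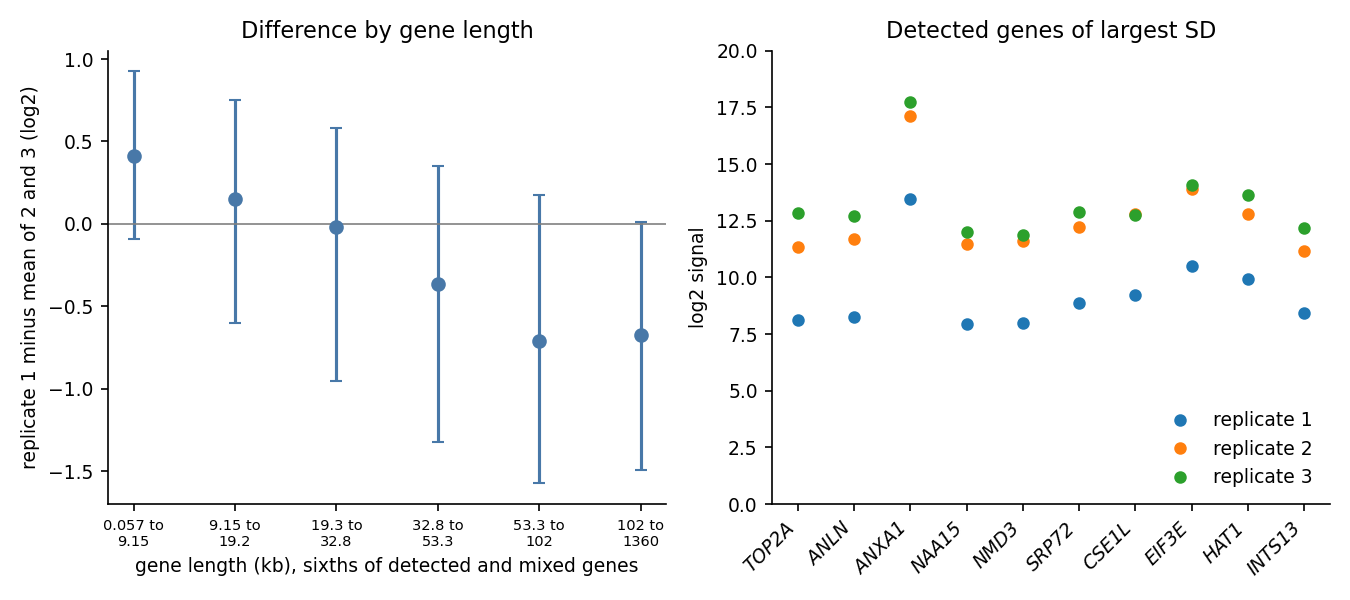
Left, replicate 1 minus the mean of replicates 2 and 3 (log2; point, median; bar, quartiles) in sixths of the 5907 detected and mixed genes by genomic length in kb. Mixed genes entered this set only through the arrays where they were high. Right, log2 signal in replicates 1, 2 and 3 of the 10 detected genes with the largest SD, and replicate 1 is lowest in each of them, for example 8.10 against 11.35 and 12.85 for TOP2A.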

How the data were processed

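Total RNA of U87MG cells was hybridised to Clariom S arrays, and the deposited values are log2 signals per probe set, 1 column per array, summarised by the authors. The sources differ on the summary method, which is RMA in the submitters' notes (made in Transcriptome Analysis Console, version 4.0.1.36) and SST-RMA in the methods, and this could not be settled from the values. The deposited log2 values were used with no further normalization, and the depth of an array has no count, so the 3 arrays alone limit the precision.

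The 3 untreated arrays were used, and the 3 P-bi-TAT arrays entered no step. Symbols came from the platform annotation, which gave 1 symbol to 17709 of 21448 gene probe sets, and 3739 without 1 symbol were not named. The 17687 genes were matched by gene ID to the RefSeq table of GRCh38.p14, which gave biotype, position and length. Detection was called against the 95th percentile of the 612 negative control probe sets of the same array, and tested with limma 3.58.1 in R 4.3.3 (lmFit and eBayes, intercept of the value minus that percentile, one-sided, Benjamini-Hochberg over 21448 gene probe sets, adjusted p under 0.05). The call and the test were checked on simulated data. Promoter features came from RefSeq windows. Protein lengths were not used here.

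Lists (26) and families (51) were described by counts. Named genes were the 30 highest, up to 5 highest members of each list with every member not detected (the 4 lowest where a list had over 16 measured), up to 3 highest of each family, the 10 detected genes of largest and the 10 bright genes of smallest SD, and all members of the 9p21, driver and integrin lists. Other names were added after their values were seen. The members and lists were chosen with earlier results of these data known, and kinases, binding proteins and methyltransferases of translation factors were taken out of that family after its values were seen. Alternatives were other thresholds, quantile normalization, median centring, other rules for probe sets and arrays, the limma call and leaving out each array.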

Additional observations from a re-analysis of the deposited data

Results flagged for a closer look

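Signal appeared in probe sets outside the described genes: of 3739 gene probe sets without 1 symbol here, 535 (14.3%) were above the 95th percentile of the negative controls on each of the 3 untreated arrays, against 5 of 612 negative controls. The brightest of them, whose identifier places it on the mitochondrial chromosome, had a mean log2 signal of 19.23 and lay within 0.15 of the highest value on each array.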

How the results depend on the processing

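The counts followed the threshold more than the scaling. With the 99th percentile of the controls 1201 genes were detected, astroglial markers fell to 1 and neuronal markers to 0, and limma called 869 genes. With the control median as threshold 10346 genes were detected and 2688 were not, with 9 astroglial, 2 oligodendroglial, 7 neuronal and 5 neural progenitor markers and 27 olfactory receptors. With detection on at least 2 of the 3 arrays there were 4 astroglial markers and 1 neural progenitor marker. With the highest GC background probe set as threshold, chosen after seeing the data, 5633 genes, 4 astroglial, 2 neuronal and 1 neural progenitor marker were detected. By the limma call the median difference in promoter CG dinucleotides was 6 in place of 9, where genes not called include the mixed ones. Mesenchymal glioma genes were at 13 to 23 and cytoplasmic ribosomal proteins at 47 to 52 under the alternatives run. Quantile normalization and median centring keep the order within an array, so they left the 3549 calls as they were by construction.

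Leaving out 1 array at a time gave 3657 to 4661 genes detected, 0 to 1 neural progenitor markers and 2339 to 3741 limma calls. A call that asks for every array can only gain genes when 1 array is left out, so that rise was fixed in direction. The median SD was 0.37 to 0.47 with 2 arrays, against 0.53 with 3, and the median level over genes was 4.93 to 4.96. A median SD of 2 values tends to lie below that of 3 values for the same spread, so these are not directly comparable. No paired analysis was possible because a single group was described, with no contrast between groups that share replicate numbers. Signals near the controls and near the top of the scale limit what the arrays resolve.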
